A study of Mus musculus with 11 samples.

Results

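Incorporation of newly made MacroH2A2 after 12 hours of induction was mapped in mouse embryonic stem (ES) cells by setting one anti-HA ChIP-Seq library, harvested at 12 h of doxycycline (Dox), against the matching library made without Dox. These are 2 of the 11 libraries of a study that followed tagged histone variants over time in ES cells and fibroblasts, and they were chosen by their labels (ES HA No Dox and ES HA 12 hrs). The cells were a single ES line of the KH2 type, of 129 X C57bl/6 background, in which HA-tagged MacroH2A2 sat under the tetracycline operator downstream of Col1a1 and the M2rtTA transactivator was expressed from ROSA26. Both libraries came from this line, both therefore carried the transgene and the transactivator, and they differed in Dox, given at 2 µg/mL for 12 h in one of them. Cells were grown on feeder fibroblasts, which were depleted by pre-plating, so that some feeder chromatin may remain, and sonicated chromatin was immunoprecipitated with an antibody against the HA tag. Cell identity could not be checked by marker expression, because these libraries hold genomic DNA and no RNA.

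MacroH2A2 is a histone H2A variant that carries a large globular macro domain at its carboxyl end. MacroH2A proteins are known for their enrichment on the inactive X chromosome and in other repressed chromatin of differentiated cells. A histone switched on by Dox marks the nucleosomes assembled since induction, so a region gains label where new histone is deposited and retained. The library without Dox serves as the background, and any tagged histone made without induction would be part of it.

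The library without Dox held 12544233 mapped intervals, of which 11381685 were distinct and lay on chromosomes 1 to 19. The 12 h library held 18829306, of which 17153206 were distinct and autosomal. Repeated intervals made up 5.71% and 6.00% of the libraries. All levels below are midpoints of distinct 150 bp intervals per 1000000 such midpoints on chromosomes 1 to 19 (p.p.m.), and the ratio is log2(12 h / no Dox). Levels are thus shares of a library, and the amount of tagged histone was not measured. A region called lower at 12 h held a smaller share, which need not mean less tagged histone than without Dox. With 1 library for each condition, differences could not be set against a spread between replicates. The intervals in parentheses are exact 95% binomial (Clopper-Pearson) intervals of the share of reads from the 12 h library, and they cover counting error only. In values pooled over genes, reads in overlapping promoters or flanks count more than once, so intervals of pooled values may be too narrow. A region was called when its ratio passed a stated size in either direction and its counting interval excluded equal levels. The 2 libraries also differed in mitochondrial DNA, which took 523 p.p.m. without Dox (5950 distinct intervals) and 46.6 p.p.m. at 12 h (799 distinct intervals), with 174 and 99.5 p.p.m. in the libraries of the same line at 3 h and 6 h. Whether this fall has a part in the ratios below was not tested.

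Over the genome, label at 12 h was uneven where the background was nearly flat. Of 24712 tiles of 100 kb, 23753 were kept, after 721 with fewer than 100 reads without Dox and the 1% (238) with the most such reads were left out. Tile levels without Dox had a median of 40.9 p.p.m. and ran from 34.5 at the 5th percentile to 49.4 at the 95th. At 12 h they ran from 25.0 to 70.0 p.p.m. about a median of 37.4. The coefficient of variation across tiles was 11.6% without Dox, where counting alone gives 4.62%, and 35.0% at 12 h, where counting gives 3.77%. Tiles were kept by their reads without Dox, which cuts the spread of that library at both ends. Its spread without this filter was not computed. The log2 ratio had an SD of 0.39, beside 0.09 expected from counting, and ran from −1.02 to 1.28. At a log2 ratio past 0.32, 4207 tiles were higher at 12 h (17.7% of those tested) and 7329 were lower (30.9%). The median tile stood at −0.10. Setting the median tile to 0 raised every ratio by that amount and gave 5776 higher and 5003 lower tiles, or 53.6% higher among the called tiles in place of 36.5%.

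The 12 h ratio followed base composition closely. Across the 23753 tiles the ratio correlated with GC content with Pearson's r = 0.863 and Spearman's rho = 0.882. These values are descriptions, since neighbouring tiles share both libraries and their depths, and base composition is shared by tiles far apart. Tiles of 36% GC had median levels of 41.3 p.p.m. without Dox and 26.8 p.p.m. at 12 h, a ratio of −0.61 over 969 tiles. Tiles of 42% GC stood at 39.9 and 38.8 p.p.m. (2056 tiles), and those of 50% GC at 48.0 and 69.3 p.p.m. (439 tiles), a ratio of 0.51. Across tiles the background therefore changed less with GC content than the 12 h level did. In 1 kb windows the background varied more, at 0.577 p.p.m. per kb between 25% and 30% GC, 0.389 between 40% and 45% and 0.770 between 70% and 75%. At 12 h the same windows held 0.262, 0.405 and 0.976 p.p.m. per kb. Each library was related to GC content by itself, with r = 0.384 for the background and 0.843 at 12 h. Among libraries made in the same study, r was 0.655 at 3 h, 0.788 at 6 h, 0.812 for an antibody against MacroH2A2 itself in ES cells and 0.659 for HA-H3.3 at 6 h, the last 2 with deposited intervals of 400 bp. Because GC content can change both the yield of a ChIP-Seq library and the chromatin it samples, a GC-rich site of deposition and a GC-dependent yield cannot be told apart in these 2 libraries.

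**Figure D1:**
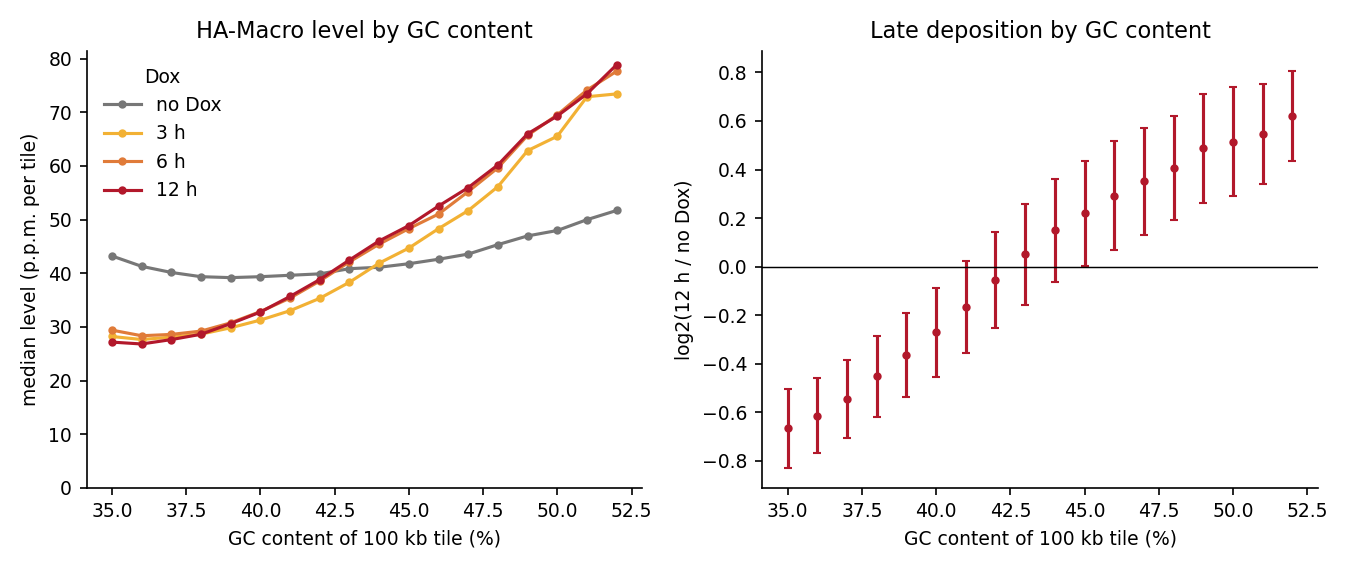
Left, median level in p.p.m. of 100 kb tiles grouped by GC content (%), for HA-Macro ES libraries without Dox and at 3, 6 and 12 h. Right, median log2(12 h / no Dox) of the same groups, with bars of 1 SD over tiles. Groups of at least 100 tiles are shown. The background stays between 39.2 and 51.7 p.p.m., while the 12 h level climbs from 26.8 to 78.9 p.p.m.

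Gene-rich tiles had higher ratios than gene-poor tiles, but not among tiles of like GC content. When the tiles were divided into deciles by their ratio, the lowest decile had a median ratio of −0.64, a mean of 0.57 gene starts per tile and no gene start in 70.5% of tiles. The highest decile had a median ratio of 0.61, 2.46 gene starts per tile and no gene start in 20.3%. The correlation with gene number was r = 0.290 for 100 kb tiles and 0.453 for the 2373 tiles of 1 Mb that were kept. Subtracting the median ratio of tiles of the same GC percent left r = −0.02 for gene number, and turned the correlation with the share of a tile covered by protein-coding genes from 0.189 to −0.137. At 46% GC, for example, the 429 tiles without a protein-coding gene start had a median ratio of 0.29 and the 214 tiles with 3 or more had 0.26. At 40% GC the corresponding values were −0.28 for 1438 tiles and −0.29 for 128 tiles. After the same subtraction the SD over tiles was 0.19, still above that from counting, and 1814 tiles were higher and 490 lower.

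The deciles also show how each end was reached. In the lowest decile, the median level was 40.7 p.p.m. without Dox, 27.4 at 3 h, 27.2 at 6 h and 25.7 at 12 h. In the highest decile it was 44.7, 53.5, 67.0 and 69.3 p.p.m. In the lowest decile most of the difference in share was thus present at 3 h, whereas the highest decile stood higher at 6 h than at 3 h. These deciles were cut by the ratio itself, so the no-Dox and 12 h levels describe the cut, and the 3 h and 6 h levels are from libraries that the cut did not use. The libraries of the study without this background in common stood in the same order. Anti-MacroH2A2 in ES cells gave 29.6 p.p.m. in the lowest and 63.4 in the highest decile, HA-H3.3 at 6 h gave 20.7 and 74.1, and HA-Macro in fibroblasts at 12 h gave 26.6 and 62.4. After GC content was taken out of both sides, the correlation of the ratio with these levels over tiles was 0.180 for anti-MacroH2A2 (23661 tiles), 0.271 for HA-H3.3 (23657 tiles) and 0.273 for fibroblasts (23753 tiles). The no-Dox level by itself, treated the same way, correlated with them at 0.274, 0.484 and 0.124, for the first 2 more strongly than the ratio did. The 12 h level by itself gave 0.316, 0.519 and 0.294, above the no-Dox level for each. The ratio holds the no-Dox level as its denominator.

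Tiles called lower formed longer runs than tiles called higher, a difference that was lost with another centring of the ratio and turned round after GC subtraction. A domain here is a run of adjacent tiles called in one direction. Of the 1861 higher runs, 971 were a single tile, and 192 reached 500 kb, 33 reached 1 Mb and 3 reached 2 Mb. Of the 2018 lower runs, 966 were a single tile, and 440 reached 500 kb, 187 reached 1 Mb and 49 reached 2 Mb. Domains of 500 kb or more held 5.99% of all tiles in the higher direction and 19.99% in the lower. With the median tile set to 0 these shares were 10.7% and 10.6%. After GC subtraction they fell to 0.366% and 0.0211%. Higher domains had a median GC content of 48.3% and 17.5 protein-coding gene starts per Mb. Lower domains had 37.5% GC and 2.97 such starts per Mb. Adjacent tiles had a correlation of 0.763 (23585 pairs), and tiles 5 Mb apart still had 0.149. With GC content subtracted these values were 0.362 and 0.0445.

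**Figure D2:**
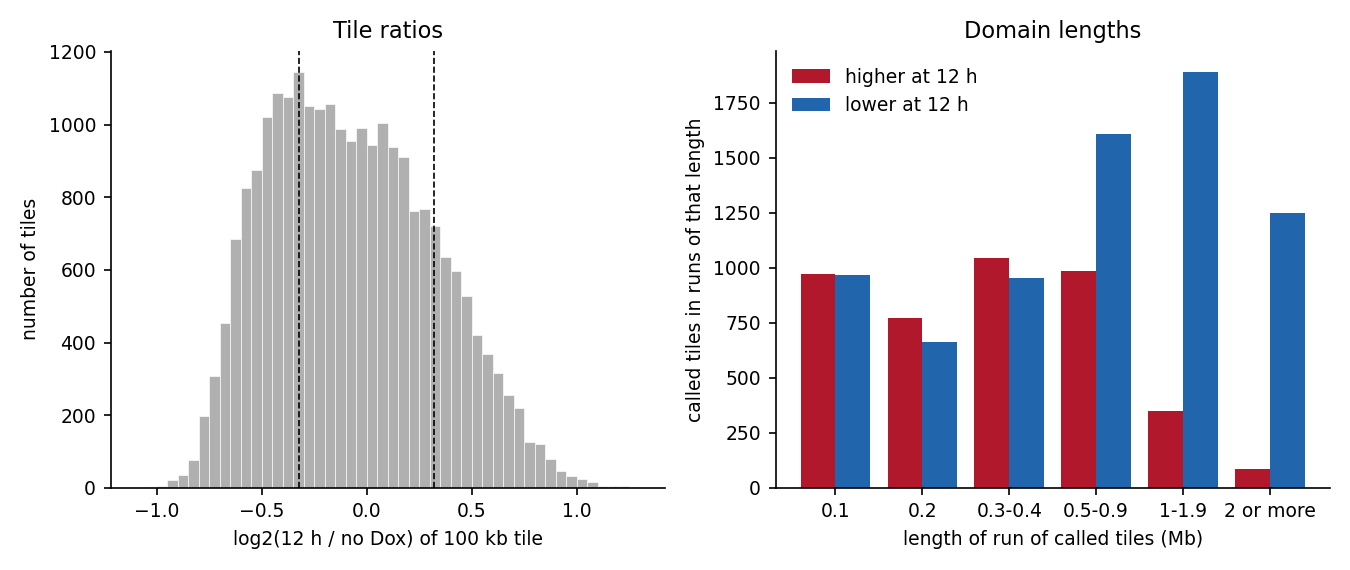
Left, number of kept 100 kb tiles by log2(12 h / no Dox), with dashed lines at a ratio of 0.32 in each direction. Right, number of called tiles that lie in runs of each length (Mb). Runs of 1 Mb or more hold 1891 and 1249 lower tiles against 350 and 85 higher tiles in the last pairs of bars.

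The longest higher domain covered 3.9 Mb of chromosome 2 (mm9, 166800001 to 170700000), with 38 protein-coding genes, the longest being Tshz2, a zinc finger homeobox gene, Dok5, an adaptor of receptor tyrosine kinases, and Nfatc2, a calcium-regulated transcription factor. Its level per 100 kb was 46.9 p.p.m. without Dox and 74.2 p.p.m. at 12 h (ratio 0.66, 0.64 to 0.68), with 61.1 and 71.6 p.p.m. at 3 h and 6 h. The next were 2.4 Mb of chromosome 4 (152400001 to 154800000, ratio 0.65) that held Prdm16, a zinc finger regulator of brown fat, and 2.2 Mb of the same chromosome (133300001 to 135500000, ratio 0.62) with Arid1a, a subunit of the BAF chromatin remodelling complex. A domain of 1.5 Mb on chromosome 10 (59600001 to 61100000) held Cdh23, a cadherin of hair cells, at 47.9 p.p.m. without Dox and 76.3 p.p.m. at 12 h. Its GC content was 49.6%, and that of these 4 domains ran from 48.3% to 50.6%.

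The longest lower domain covered 4.6 Mb of chromosome 14 (106900001 to 111500000) with 4 protein-coding genes, among them Slitrk6 and Slitrk1, which encode neuronal transmembrane proteins. It held 38.4 p.p.m. per 100 kb without Dox and 25.5 p.p.m. at 12 h (ratio −0.59, −0.62 to −0.56), and had already 26.3 p.p.m. at 3 h. The second, 3.9 Mb of the same chromosome (80700001 to 84600000), contained no protein-coding gene and had a ratio of −0.58. The next 2 were each 3.6 Mb long: one on chromosome 14 (95200001 to 98800000) with Klhl1 and Dach1, a developmental regulator, at −0.61, and one on chromosome 3 (41400001 to 45000000) with Sclt1, which encodes a centriole appendage protein, at −0.56. The GC content of these 4 ran from 36.3% to 37.3%. Another of 3.6 Mb, on chromosome 5 (82700001 to 86300000), tied in length with the last 2 and held the ephrin receptor gene Epha5.

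Whole chromosomes differed little once base composition was taken out. Median tile ratios ran from −0.25 on chromosome 3 (40.5% GC) to 0.08 on chromosome 11 (43.8% GC), and from −0.05 to 0.06 after GC subtraction. Chromosome X, which was left out of the totals and is single in these male cells, held 38431 p.p.m. without Dox and 31573 p.p.m. at 12 h (ratio −0.28). Its 1629 tiles had a median ratio of −0.34 at 38.9% GC, and 0.004 after GC subtraction. The X chromosome thus stood at the level of autosomal tiles of the same GC content.

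Gene bodies mostly had lower ratios than the DNA beside them, except where the body was over 3 points richer in GC. Bodies were counted from 1 kb past the start site to the gene end in protein-coding genes of at least 5 kb, and 12494 of 15408 such genes had the 50 reads without Dox that the count required. This minimum drops bodies with few reads without Dox whatever their 12 h level, such as Lefty2 (32 and 121 reads), and doubling it gave 1957 higher and 1920 lower bodies, so the balance of calls given next depends on it. At a log2 ratio past 0.32, 2923 were higher at 12 h (23.4%) and 2231 lower (17.9%), and the median ratio was 0.04. With the median tile set to 0, 3938 were higher and 1462 lower, and after GC subtraction 696 were higher and 1361 lower. The ratio fell with gene length, from a median of 0.18 in 3329 genes of 5 to 20 kb to −0.23 in 188 genes over 500 kb, along with GC content, which fell from 47.1% to 40.1%. After GC subtraction these medians ran the other way, from −0.12 to 0.02. The 50 kb on each side of the same genes, left out up to 1 kb from the gene ends, had a median ratio of 0.22. A body stood below its own flanks in 8325 of 12494 genes (66.6%), with a median difference of −0.14, a comparison that no scaling of the libraries can move. The minimum of 50 reads without Dox applied to bodies and not to flanks, so it can place bodies lower against flanks. It was met by 3329 of 6242 genes of 5 to 20 kb and by 6899 of 6900 of 20 to 100 kb. Its effect on this comparison, also in the gene lists below, was not tested. Among the 3927 genes whose body and flanks were within 1 percentage point of GC of each other, 2486 (63.3%) stood below, with a median difference of −0.08. Where the body was over 3 points poorer in GC than its flanks, 1819 of 1901 (95.7%) stood below. Where it was 1 to 3 points richer, 1278 of 2474 (51.7%) did (median difference −0.01), and where it was over 3 points richer, 629 of 1624 (38.7%), with a median difference of 0.10 in the other direction. Pooled over all genes, the density per kb of bodies over that of flanks was 0.968 without Dox, 0.926 at 3 h, 0.830 at 6 h and 0.816 at 12 h. For HA-H3.3 at 6 h it was 0.761 and for anti-MacroH2A2 it was 0.873.

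Pooled over long genes, the ratio was lower in bodies than in the flanks next to them. In 9166 genes of 20 kb or more, the pooled ratio rose from 0.20 at 40 to 50 kb upstream to 0.27 (0.265 to 0.276) in the last 10 kb before the gene. It was 0.03 in the first of 10 parts of the gene body and −0.04 in the middle, and returned to 0.23 in the first 10 kb past the gene end. These steps are too coarse to place the change. In bins of 200 bp, not limited to long genes, the difference was smaller. Around start sites the pooled ratio was 0.27 at 4900 bp upstream and 0.14 at 4900 bp downstream. Around gene ends it was 0.17 at 4900 bp before the end and 0.28 at 4900 bp past it. In the last 10 kb upstream the level, from no Dox to 12 h, went from 39453 to 47582 p.p.m. summed over genes, and in the middle of the body from 36903 to 35963 p.p.m. In 1 kb windows sorted by GC content, windows in genes stood below those next to genes in each range given here, while their order with windows at start sites changed with GC content. Between 45% and 50% GC, windows within protein-coding genes had a pooled ratio of 0.28, those over 10 kb from any gene 0.38, those within 1 kb of a start site 0.27, and the rest, which lie next to genes or in non-coding genes, 0.48. Between 50% and 55% GC these values were 0.44, 0.54, 0.29 and 0.61. Between 40% and 45% GC they were 0.0004, 0.06, 0.09 for start sites and 0.19 for the rest. Between 35% and 40% GC, windows in genes and windows far from genes stood at −0.38 and −0.37, those near a start site at −0.29 and the rest at −0.25.

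**Figure D3:**
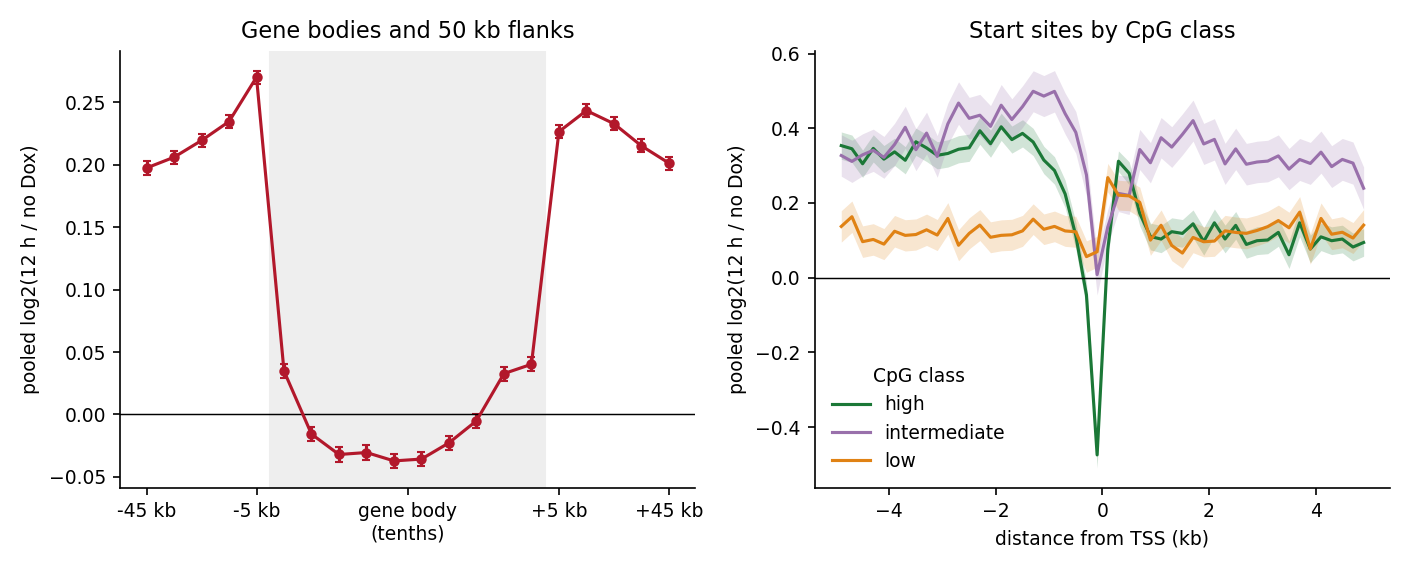
Left, pooled log2(12 h / no Dox) in 10 kb steps of the flanks and in 10 parts of the bodies of 9166 genes of 20 kb or more. Right, the same ratio in 200 bp bins by distance from the TSS (kb), for promoters of high, intermediate and low CpG content. Bars and bands are counting intervals. On the left, the ratio is 0.27 in the last 10 kb upstream and 0.03 in the first of the 10 body parts. On the right, the high CpG class has a minimum of −0.47 just upstream of the TSS.

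Named genes show the range. Of the 5555 bodies with at least 200 reads without Dox, the 8 with the highest and the 8 with the lowest ratio are given, chosen by that ratio and so described without a test. Mocos, on chromosome 18, encodes the sulfurase of the molybdenum cofactor. Its body held 25.0 p.p.m. without Dox (284 reads), 37.0 at 3 h, 87.3 at 6 h and 87.7 at 12 h (1504 reads), a ratio of 1.81 (1.63 to 2.00). Its flanks stood at 0.18. Elfn1, which encodes a postsynaptic protein, held 34.3, 47.8, 81.5 and 87.4 p.p.m. in the same order (ratio 1.35). Srrm3, a regulator of neuronal splicing, held 30.5, 42.6, 64.2 and 66.5 p.p.m. (1.13). Pax7, a transcription factor of muscle and neural progenitors, held 44.0, 55.9, 87.4 and 90.9 p.p.m. (1.05), and here the flanks stood as high, at 0.96. The others were 4930555I21Rik (1.13), Nwd1 (1.10), Sez6l (1.04) and Cpne5, which encodes a calcium-dependent membrane binding protein (1.02). In all 8, the level at 3 h lay between those without Dox and at 12 h.

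The 8 lowest bodies behaved otherwise, with their highest level at 3 h, in some only slightly above that without Dox. Ube3a, a ubiquitin ligase, held 35.9 p.p.m. without Dox (409 reads), 44.8 at 3 h, 19.6 at 6 h and 14.7 at 12 h (253 reads), a ratio of −1.28 (−1.52 to −1.06). Cpsf6, a subunit of the pre-mRNA cleavage factor, held 17.8, 28.3, 12.5 and 8.74 p.p.m. (ratio −1.03), and its flanks stood at 0.37. Sept7, a septin of the cytoskeleton, went from 27.7 p.p.m. without Dox to 38.3 at 3 h and 21.6 at 6 h, and had a ratio of −1.09. Uba6, a ubiquitin-activating enzyme, held 33.3, 40.6, 21.5 and 16.0 p.p.m. (−1.06), and Rasa1, a Ras GTPase-activating protein, 36.0, 44.3, 26.9 and 17.4 p.p.m. (−1.05). Mybl1, a transcription factor of male meiosis (−1.08), Iqcb1, a ciliary protein (−1.06), and AI848100 (−1.01) completed the group. From no Dox to 3 h, Mybl1 went only from 17.8 to 18.4 p.p.m. and Iqcb1 from 24.5 to 26.1. As shares of their libraries, in each of the 8 the 3 h level was the highest of the 4 and the 12 h level the lowest. All 8 bodies were AT-rich, from 33.4% to 36.7% GC, against flanks of 38.5% to 44.3%, and after subtraction of the ratio of tiles of their GC content their ratios ran from −0.55 to −0.28. Both ends of this range are uncertain, because few tiles are so AT-rich. The value of Ube3a (−0.55) rests on 1 tile of 33% GC, and those of Mybl1, Uba6 and Rasa1 (−0.30 to −0.28) on 5 tiles of 34% GC. The highest 8 stood at 0.40 to 1.52 after the same subtraction.

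**Figure D4:**
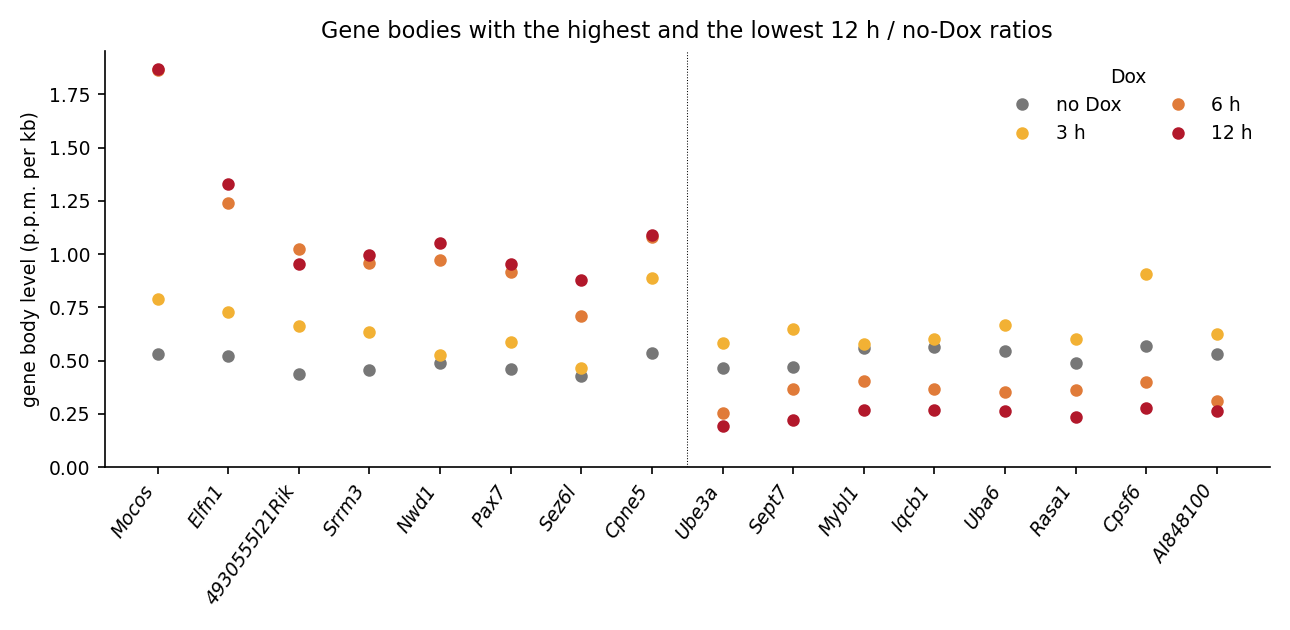
Level of the 16 gene bodies in p.p.m. per kb, in HA-Macro ES libraries without Dox and at 3, 6 and 12 h, with the 8 highest ratios left of the dotted line and the 8 lowest right of it. The 6 h and 12 h points lie above both others on the left, and below both others on the right.

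Genes of the pluripotent state mostly started in tiles called higher, while most of their counted bodies stood below the adjoining DNA. Of 29 pluripotency genes found, 21 had their start in a tile called higher (19 of 27 distinct tiles) and 0 in a tile called lower, with a median tile ratio of 0.40. Tiles called higher made up 17.7% of all tiles, and 45.7% of those of 46% GC. The tiles of pluripotency genes had a median of 45.6% GC, and a median ratio of 0.19 after GC subtraction. For Pou5f1, the master regulator Oct4, the tile went from 48.9 to 77.0 p.p.m. (0.66). For Nanog the tile ratio was 0.40 and for Sox2 it was 0.35. For Lefty1 and Lefty2, Nodal antagonists that share a tile, it was 0.90. Only 13 had a body that could be counted, and of these 3 (Prdm14, Esrrb and Dnmt3l) were called higher and 3 lower, shares near the 23.4% and 17.9% of all bodies. Their median was −0.20, beside 0.04 over all bodies, and 0.46 in their flanks. The body stood below the flanks in 12 of 13, where 66.6% of all bodies did, the exception being Prdm14, a zinc finger regulator of naive pluripotency (body 0.68, flanks 0.48). Median GC content was 45.7% in these bodies and 46.0% in the flanks. Tbx3, a T-box factor, had 93 reads in its body in each library, a ratio of −0.59 (−1.02 to −0.16), with flanks at 0.83. L1td1, an RNA-binding protein of ES cells, had −0.65 (−1.22 to −0.07) and flanks at 0.31, and Klf5 had −0.37 and 0.56. Sall4 stood at −0.11, Lin28a at −0.20 and Zfp42 (Rex1) at −0.33, with flanks from 0.41 to 0.80. Esrrb, an orphan nuclear receptor with the largest body of the list, was called higher at 0.39 (0.27 to 0.51), near its flanks at 0.45. Over the 13 bodies, density relative to the flanks was 1.04 without Dox, 1.47 at 3 h, 0.851 at 6 h and 0.754 at 12 h, and 1.55 for HA-H3.3 at 6 h.

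The genes for MacroH2A, H3.3 and their chaperones also had bodies below their flanks. Of 20, 10 lay in tiles called higher and 1 in a tile called lower, beside 17.7% and 30.9% of all tiles, with a median of 0.34. Median GC content of these tiles was 46.8%, and of all tiles of 47% GC, 56.0% were called higher and 0% lower. After GC subtraction the tile median was −0.03. Of 17 bodies counted, 1 was called higher and 4 lower (median −0.21), beside 23.4% and 17.9% of all bodies. All 17 stood below their flanks (median 0.46). H2afy2, which encodes MacroH2A2 itself, was the body called higher, at 0.35 (0.14 to 0.57). H2afy, for MacroH2A1, stood at 0.22. H3f3a, for H3.3, was called lower at −0.52, as were Smarca5, an ATPase of the ISWI remodellers, at −0.85 (−1.12 to −0.59), Chd1, another remodeller, at −0.51, and Ubn2, of the HIRA complex, at −0.42. Hira itself, an H3.3 chaperone, stood at −0.15 (−0.32 to 0.02). These bodies had a median of 42.7% GC against 45.9% in the flanks. Their density relative to the flanks was 1.04 without Dox, 1.35 at 3 h, 0.848 at 6 h and 0.757 at 12 h.

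The loci of the construct were read in the same way. Reads of the transgene's coding sequence would map to the exons of H2afy2, and its exons held 19 reads without Dox and 30 at 12 h (ratio 0.07, −0.81 to 0.98), against 255 and 487 in its introns (0.34). Col1a1, the type I collagen gene, taken with 50 kb on each side held 56.8 p.p.m. without Dox and 84.9 at 12 h (0.58). The gene by itself stood at 0.43, and the gene with 500 kb on each side at 0.48. The transcribed Gt(ROSA)26Sor gene, where the transactivator was placed, had 82 and 66 reads (−0.90, −1.40 to −0.42). Taken with 50 kb on each side the gene stood at −0.27, and with 500 kb at 0.22.

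Genes used by nearly every cell started in tiles called higher more often than called lower. Of 70 cytosolic ribosomal protein genes with a kept tile, 36 lay in tiles called higher and 0 in tiles called lower (median 0.34), beside 17.7% and 30.9% of all tiles. Only 3 bodies could be counted, of which 1, that of Rpl11, was called higher (0.75) and 0 lower, and Rpl24 stood at −0.06. Of 75 genes of the mitochondrial respiratory chain, 23 lay in higher and 5 in lower tiles, against the same 17.7% and 30.9%. Median tile GC content was 46.9% for the ribosomal and 45.4% for the respiratory chain genes. Among all tiles, 56.0% of those of 47% GC and 33.2% of those of 45% GC were called higher. After GC subtraction the tile medians were 0.03 for ribosomal, −0.05 for respiratory chain and 0.12 for the histone genes given below. Of 27 bodies of respiratory chain genes 1 was called higher and 6 lower, beside 23.4% and 17.9% of all bodies, and 24 of 27 stood below their flanks, beside 66.6%. Ndufs4, a subunit of complex I, had −0.23 and Atp5o, of the ATP synthase, 0.13. The 67 replication-dependent histone genes share 11 tiles, of which 4 were higher and 0 lower. Their promoters, pooled, held a smaller share at 12 h, at −0.35 (−0.50 to −0.21), from 714 and 843 reads. These genes are clustered, and reads in overlapping promoter windows count more than once, so this interval may be too narrow.

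Developmental genes had bodies about as high as their flanks, and more GC-rich than them. Of 49 developmental regulators, 26 lay in higher tiles and 2 in lower ones (median 0.34), where all tiles had 17.7% and 30.9%. Median GC content of these tiles was 45.5%, and their median ratio after GC subtraction was 0.12. Of 16 bodies 9 were called higher and 0 lower, with a median of 0.33 beside 0.23 in the flanks, and 4 of 16 stood below their flanks. Over all bodies 23.4% were called higher and 66.6% stood below. Median GC content was 47.4% in these bodies and 45.3% in their flanks, and 49.0% and 47.9% for the Hox bodies below. Pax2 had 0.70 (0.53 to 0.88) and Runx1 0.33. The 39 Hox genes, which pattern the body axis, share 9 tiles, of which 7 were higher. Of 5 Hox bodies counted 4 were called higher and 0 lower, Hoxb3 at 0.81, Hoxd3 at 0.64 and Hoxa3 at 0.36. Imprinted genes had 11 of 31 tiles higher and 4 lower, a larger and a smaller share than over all tiles. The body of Kcnq1 stood at 0.28 and that of Snrpn, in the Prader-Willi region, at −0.53. The clustered protocadherins, neuronal adhesion genes on chromosome 18, had 0 of 6 tiles called in either direction (median −0.04). Of the genes for fibroblast matrix proteins, 8 of 30 tiles were higher and 6 lower, and 13 of 22 bodies stood below their flanks, although the body median (0.07) was above that of the flanks (0.03). Fbn1, for fibrillin, had 0.03 and Col5a1, for a fibrillar collagen, 0.14. Of 28 keratin tiles, 8 were higher and 4 lower. Both the matrix and the keratin genes thus had more higher and fewer lower tiles, as shares, than all tiles (17.7% and 30.9%). Median tile GC content was 43.8% for matrix, 44.1% for keratin and 44.1% for imprinted genes. Of all tiles of 44% GC, 24.8% were called higher and 0.218% lower. After GC subtraction the tile medians were −0.004, −0.001 and 0 in the same order. The body of Krt80 stood at 0.72 and that of Krt7 at 0.55, and the tile they share at 0.46.

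Olfactory and vomeronasal receptors, large families in AT-rich clusters, lay mostly in tiles called lower, which made up 30.9% of all tiles. Of 1081 olfactory receptor genes in 327 tiles, 13 tiles were higher and 198 lower, with a median over genes of −0.39. Median tile GC content was 38.8% for olfactory and 39.3% for vomeronasal receptors. Of all tiles of 39% GC, 60.2% were called lower. After GC subtraction the tile medians were −0.007 for olfactory and −0.10 for vomeronasal receptors. Of 194 vomeronasal receptor tiles 3 were higher and 133 lower, and 86 of 115 bodies were called lower and 0 higher (median −0.58), beside 17.9% and 23.4% of all bodies. Vmn2r7 had −0.42 and Vmn1r112 had −0.49. These receptor genes are near copies of one another, and reads that matched several places were put at 1 of them at random, so single members are uncertain. Serpins and cytochromes P450 had 6 of 75 tiles higher and 17 lower, both smaller shares than over all tiles. Median tile GC content was 41.7%, and the tile median after GC subtraction was −0.02. The body of Cyp2c29 stood at −0.50. Long neuronal genes had 5 of 35 tiles higher and 17 lower, and 17 of 35 bodies lower with 1 higher, again beside 17.9% and 23.4%. Cntnap2, a neurexin relative of over 2 Mb, went from 10095 to 11165 reads (ratio −0.45, −0.49 to −0.41), Ptprd, a receptor phosphatase, had −0.51, and Macrod2, a macro domain protein, −0.27. By contrast, few tiles of the next lists were called lower. Germline genes had 6 of 29 tiles higher and 2 lower, and 20 of 24 bodies below their flanks, with Zpbp at −0.32. Zinc finger (Zfp) genes had 72 of 254 tiles higher and 23 lower, and 190 of 235 bodies below their flanks, and for both lists the last share was above the 66.6% of all bodies. Higher tiles were 17.7% of all tiles, and 24.8% of those of 44% GC. Median tile GC content was 42.3% for germline and 43.9% for Zfp genes, and after GC subtraction the tile medians were 0.06 and 0.004. The median GC content of the tiles of these lists ran from 38.8% for olfactory receptors to 47.5% for Hox genes, and after GC subtraction their median tile ratios ran from −0.10 for vomeronasal receptors to 0.19 for pluripotency genes. The tile medians of protocadherins and matrix genes and the body medians of Zfp and ribosomal genes lay between −0.10 and 0, and are above 0 when the median tile is set to 0.

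**Figure D5:**
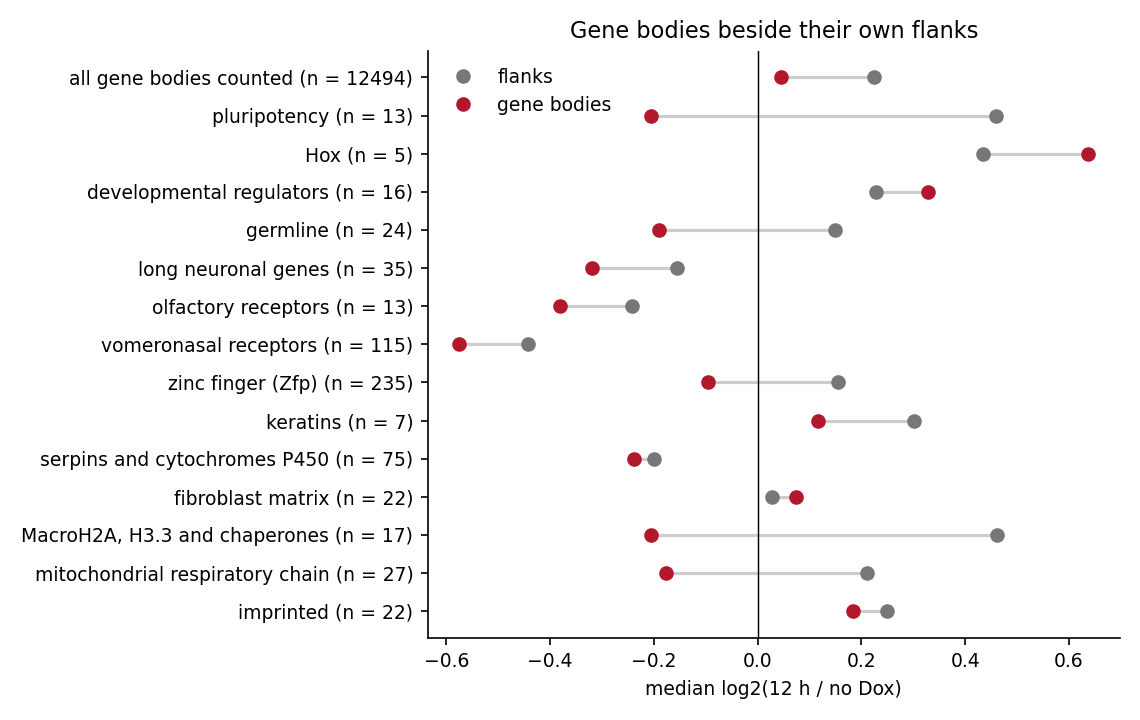
Median log2(12 h / no Dox) of gene bodies (red) and of the 1 to 50 kb on each side of them (grey), for all 12494 genes counted and for the lists with at least 5 bodies. The gap between the medians is widest for pluripotency genes (−0.20 and 0.46) and chaperone genes (−0.21 and 0.46). It is turned the other way for Hox genes, developmental regulators and fibroblast matrix genes, although 13 of 22 matrix bodies stood below their own flanks.

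At promoters the ratio differed between classes of CpG content, which also differed in GC content. Within 600 bp of the start sites of 20796 protein-coding genes, the pooled level went from 13655 to 14942 p.p.m., a ratio of 0.13 (0.12 to 0.14). The 10 to 50 kb on both sides stood at 0.19, so promoters were lower by 0.06, a difference that became 0.01 in the other direction with 2 kb on each side of the start site. By the observed over expected CpG frequency of the promoter, the 9243 promoters of high CpG content (at least 0.6) had a ratio of 0.08 and flanks of 0.23. The 3915 of intermediate content had 0.20 and 0.26, and the 7638 of low content (under 0.35) had 0.17 and 0.09. Promoter GC content was 60.2%, 53.6% and 45.4% in the high, intermediate and low classes. Whether the differences go with CpG or with GC content was not tested. Pooled within 600 bp, promoters rich in CpG, the kind used by most widely expressed genes, thus lay below these flanks and CpG-poor promoters above them. Single bins of the high class lay on both sides of its flanks, and the window of 2 kb was not split by class. In the bin of 0 to 200 bp upstream of the TSS, the high CpG class went from 1112 p.p.m. without Dox to 801 at 12 h, a ratio of −0.47 (−0.51 to −0.44). In the bin of 200 to 400 bp downstream it went from 1438 to 1785 p.p.m. (0.31), with 3462 p.p.m. at 3 h and 2338 at 6 h. At 1.9 kb the ratio was 0.40 upstream and 0.10 downstream. The background had a peak of its own here, at 1.77 times the upstream level, beside 1.74 times at 12 h, and whether tagged histone made without Dox has a part in it was not tested.

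Single promoters held few reads, with medians of 7 without Dox and 11 at 12 h. Of 20796, 9605 held at least 20 reads over both libraries, and at 1.5-fold 692 of them were higher (7.2%) and 149 lower (1.55%). Since a promoter could pass that minimum through its 12 h reads alone, the excess of higher calls is not evidence of direction. The minimum doubled left 128 higher and 1 lower. Sequences of 6 of the 10 promoters whose counting interval lay farthest from 0 are shown, so that their CpG content can be read. Each line gives the 250 bases before the TSS, 5′ to 3′ on the strand of the gene, from the mm9 genome, with CpG dinucleotides in capitals.
Gm11011: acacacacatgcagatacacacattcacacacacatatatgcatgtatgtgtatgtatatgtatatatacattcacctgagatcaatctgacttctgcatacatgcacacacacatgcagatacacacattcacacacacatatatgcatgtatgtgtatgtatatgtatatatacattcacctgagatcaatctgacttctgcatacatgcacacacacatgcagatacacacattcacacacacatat
Spic: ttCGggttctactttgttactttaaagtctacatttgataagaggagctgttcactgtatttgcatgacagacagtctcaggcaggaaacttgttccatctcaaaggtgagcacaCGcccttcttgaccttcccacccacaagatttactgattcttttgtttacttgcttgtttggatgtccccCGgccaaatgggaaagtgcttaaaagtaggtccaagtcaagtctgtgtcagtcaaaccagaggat
Krt14: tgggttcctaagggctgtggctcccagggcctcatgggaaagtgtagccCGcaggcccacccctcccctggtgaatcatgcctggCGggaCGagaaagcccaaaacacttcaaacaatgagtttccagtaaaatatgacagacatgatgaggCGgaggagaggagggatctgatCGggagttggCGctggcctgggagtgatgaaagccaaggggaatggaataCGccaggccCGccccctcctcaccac
Fgfr1op2: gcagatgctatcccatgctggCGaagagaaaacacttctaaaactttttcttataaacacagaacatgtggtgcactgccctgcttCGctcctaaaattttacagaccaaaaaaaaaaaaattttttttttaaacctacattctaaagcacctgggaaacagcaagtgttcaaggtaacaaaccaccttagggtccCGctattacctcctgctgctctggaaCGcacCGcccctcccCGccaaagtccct
Gxylt2: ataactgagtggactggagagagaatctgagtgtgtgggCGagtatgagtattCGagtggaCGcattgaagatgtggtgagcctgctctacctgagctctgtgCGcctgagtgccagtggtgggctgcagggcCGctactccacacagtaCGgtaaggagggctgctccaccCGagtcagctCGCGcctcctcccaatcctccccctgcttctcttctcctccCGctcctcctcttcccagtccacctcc
Adam26b: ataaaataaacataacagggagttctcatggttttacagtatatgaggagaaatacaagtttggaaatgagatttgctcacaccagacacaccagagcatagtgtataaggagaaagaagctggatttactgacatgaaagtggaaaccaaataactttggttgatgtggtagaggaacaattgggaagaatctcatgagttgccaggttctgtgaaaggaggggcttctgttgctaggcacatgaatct
The first is a predicted gene model on chr2:169413246-169413495 (minus strand), inside the longest higher domain, and its sequence repeats a unit with no CpG. Its promoter held 12 reads without Dox, 24 at 3 h, 132 at 6 h and 148 at 12 h (ratio 3.03, 2.18 to 4.02). Reads of repeats were placed at random, so its level is uncertain. Spic (chr10:88147761-88148010, minus strand), a transcription factor of red pulp macrophages, had 3 CpG and held 4, 21, 56 and 49 reads in the same order (3.02, 1.57 to 4.96). Krt14 (chr11:100068863-100069112, minus strand), a keratin of basal epidermis, had 8 CpG and held 2, 16, 22 and 33 reads (3.45, 1.48 to 6.56). The others with the highest ratios were Sstr3, a somatostatin receptor, with 2 reads and 35, and Gm11733, with 2 and 32. Among the lower promoters, Fgfr1op2 (chr6:146525475-146525724, plus strand) had 6 CpG and held 17, 14, 13 and 4 reads (−2.68, −4.71 to −1.06). Gxylt2 (chr6:100654478-100654727, plus strand), a xylosyltransferase that acts on Notch, had 10 CpG and held 19, 22, 17 and 6 reads (−2.25). Adam26b (chr8:44613492-44613741, minus strand), a testis metalloprotease, had 0 CpG and held 16, 5, 6 and 4 reads (−2.59). Pigb, an enzyme of the membrane anchor GPI, fell from 16 reads to 4 and Olfr866 from 18 to 6. Over all 20796 promoters the median was 9 CpG in these 250 bases and 7.51% had none.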

How the data were processed

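Anti-HA ChIP-Seq libraries without Dox and at 12 h were analysed from the interval files deposited by the authors, whose columns 2 and 3 are start and end positions (a coordinate unit, with no score). Per the study's methods and processing notes, the authors collapsed identical reads, mapped them with Bowtie 1.0 to mm9, allowing 1 mismatch and placing reads with several matches at 1 random location, and extended them to 150 bp. The name of the no-Dox file contains the word dox, and the label (No Dox) was used. Midpoints of distinct intervals were counted with NumPy 2.4.6, pandas 2.3.3 and SciPy 1.17.1 in tiles, bodies and promoters of the GENCODE M1 annotation (mm9). The counting rule was checked on simulated tiles. Members, lists and tests were chosen with earlier results of these data known: genes named are the 3 list members with most body reads, all pluripotency and chaperone genes, the extremes of bodies, promoters and domains, and the construct's loci. Comparisons of bodies with flanks were added after the first tables were read. Promoter sequences were read from the mm9 genome. The other 5 libraries read here give levels beside these 2, and 4 were not used.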

Additional observations from a re-analysis of the deposited data

Results flagged for a closer look

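The 238 tiles of 100 kb with the most reads without Dox, which the comparisons left out, had a median log2(12 h / no Dox) of 0.30, above the no-Dox control, beside −0.10 in all kept tiles and 0.35 in kept tiles of 47% GC. Of them, 115 (48.3%) would have been called higher and 24 (10.1%) lower. Their median GC content was 47.2%, and they held 2.18% of the reads without Dox and 2.40% of those at 12 h. Single tiles ran from −2.11 to 1.55.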

How the results depend on the processing

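Each of the 14 summary values was recomputed under the alternatives that apply to it, 99 values over 13 alternatives: 62 stayed within 0.05 (counts within 1.5-fold, domain shares and pooled promoter ratios within their counting interval), 35 moved further and 2 changed sign. Subtracting the median ratio of tiles of the same GC percent moved the tile SD to 0.19, tile calls to 1814 higher and 490 lower, domain shares to 0.366% and 0.0211%, body calls to 696 and 1361, and turned the correlation with gene number to −0.022. Calling tiles and bodies at 1.5-fold gave 1360 and 2020 tiles, 1314 and 759 bodies, and domain shares of 0.682% and 1.55%. With the median tile set to 0, domain shares were 10.7% and 10.6%, 1462 bodies and 87 promoters were lower, and the pooled promoter ratio was 0.23. Rank correlation gave 0.372 for gene number in 100 kb tiles and 0.603 in 1 Mb tiles. The share in higher domains was 6.31% with every interval counted, and bridging 1 tile gave 11.8% higher and 28.0% lower. With no tile left out, the share in higher domains was 6.81%, the pooled promoter ratio 0.092 and promoter minus flank −0.094. With the top 5% left out, these were 3.52%, 0.10 and −0.049, and the share in lower domains was 20.6%. Windows of 2 kb gave a pooled promoter ratio of 0.20, 2517 higher and 831 lower promoters, and turned promoter minus flank to 0.0076. Doubling the minimum reads left 128 higher and 1 lower promoters. Beyond what an alternative's own construction fixes, the cause of these moves was not tested. No library could be left out, with 1 for each condition. No paired analysis was possible because each condition has a single library. Depth limits single promoters most, at a median of 7 reads without Dox.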
